A study of Rattus norvegicus with 2 samples.

Results

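Transcripts of an endogenous retrovirus and of a VL30 element were read in rat liver by 4 of the 41012 distinct gene probes of an Agilent rat array, under 2 of its 33719 gene names. They are all the probes named AY212271, described on the array as a partial endogenous retrovirus mRNA (3 probes), or M91234, described as the mRNA of a rat VL30 element (1 probe). They were chosen by their log2 ratios between the diets on these same arrays, so those ratios are a description and carry no test. The livers came from rats aged 7 weeks, of a strain the labels spell Wister, that had eaten either a diet without enough choline or a control diet for 10 days. Each of 2 arrays held RNA of both diets with the dyes swapped: the choline-deficient sample carried Cy5 on array 1 and Cy3 on the other, and both arrays lie on 1 slide and come from 1 scan. The title speaks of 4 choline-deficient rats, and the labels do not say whether the arrays held different rats, a pool or the same extracts, nor give the sex or the make-up of the diets beyond choline, so the spread behind each p-value is that of 2 arrays and may be technical.

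Endogenous retroviruses are proviruses that entered the germ line and are inherited as part of the host genome. A complete copy has gag, pol and env genes between long terminal repeats (LTRs), which carry the promoter and the polyadenylation signal, and most copies have decayed. VL30 elements of rats and mice are LTR retrotransposons that code for no complete viral protein, but their RNA can be packed into retroviral particles of the same cell. In most adult tissues DNA methylation and repressive histone methylation keep such copies largely silent, and those that are transcribed often answer to the host transcription factors that bind their LTRs. Many near-identical copies exist, so a probe reads the summed RNA of every copy that matches it and not a single locus.

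The VL30 probe is the one sequence printed here, because it is the only probe for that element. The array files place it on the minus strand of chromosome 2 (build rn4, chr2:17382581-17382637), an interval of 57 bases for a probe of 60 bases. The capitals mark the longest run it shares, on either strand, with any of the other gene probes of the array, 14 bases found again in a Setbp1 probe that did not pass the filter on dim signals.
M91234 probe A_44_P403877: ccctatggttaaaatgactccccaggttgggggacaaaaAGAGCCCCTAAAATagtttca

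The AY212271 probes are given in the array files at 3 separate places of rn4. A_44_P175299 lies on chromosome 2 from 210366510 to 210366569 and A_44_P959890 on chromosome 2 from 1576239 to 1576298, both on the plus strand. A_44_P594411 lies on the minus strand of chromosome 6 from 105395996 to 105396055. No annotation of rn4 was used here, so whether these places fall within a host gene is not stated. The longest run that any 2 of the 4 probes share is 8 bases, so they read different stretches of sequence. Each AY212271 probe has 21 G or C bases in 60 (35%) and the VL30 probe has 27 (45%), against a median of 43.3% over all gene probes.

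The AY212271 RNA read by A_44_P175299 was lower in choline-deficient liver. Its mean signal was 13155 (Cy5) and 5224 (Cy3) in choline-deficient liver on arrays 1 and 2, against 11523 (Cy3) and 30663 (Cy5) in control liver, over local backgrounds between 43.0 and 51.0. In these raw signals Cy5 was the brighter dye on both arrays. After loess, which took out a Cy5 excess of 1.36 on array 1 and 1.18 on array 2 (log2) at this spot, the normalized log2 level was 13.06 and 12.89 in choline-deficient liver, against 14.24 and 14.27 in control liver. Both choline-deficient values lay below both control values. The log2 ratio of choline-deficient over control was -1.17 on array 1 and -1.38 on array 2, a mean of -1.28 ± 0.15 (SD, n = 2 arrays), or 2.42-fold lower.

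A_44_P959890, the second probe of the same transcript, was lower too. Its mean signal was 8742 and 4276 in choline-deficient liver and 8801 and 19787 in control liver, on arrays 1 and 2. After background subtraction and before loess, its log2 ratio was -0.01 on array 1 and -2.22 on array 2. Loess took out a Cy5 excess of 1.32 and 1.14 at this spot. Normalized log2 levels were 12.49 and 12.57 in choline-deficient liver, against 13.82 and 13.66 in control liver, with no overlap. The log2 ratio was -1.33 and -1.08, a mean of -1.21 ± 0.18 (SD, n = 2 arrays), or 2.31-fold lower. The difference between the log2 ratios of these 2 probes (A_44_P175299 minus A_44_P959890) was 0.16 on array 1 and -0.30 on array 2, so that the arrays differed in which of them was lower.

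The AY212271 probe on chromosome 6, A_44_P594411, did not share the lower level. Its mean signals were 324 and 237 in choline-deficient liver, against 179 and 296 in control liver, and it was well above background in both diets on both arrays. After background subtraction and before loess, its log2 ratio was 1.11 on array 1 and -0.39 on array 2. Its normalized log2 levels of 8.13 and 8.17 in choline-deficient liver lay slightly above the 7.98 and 7.93 of control liver. The log2 ratio was 0.15 and 0.24, a mean of 0.20 ± 0.07 (SD, n = 2 arrays). Set against this probe, A_44_P175299 had a log2 ratio that differed by -1.32 on array 1 and -1.62 on array 2, and A_44_P959890 one that differed by -1.48 and -1.33. The AY212271 probes therefore gave unequal ratios, 2 near -1.2 and 1 above 0, and a single value for AY212271 averages unlike readings. Which copies of the element each probe reads was not tested.

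The VL30 RNA read by M91234 was also lower in choline-deficient liver. Its mean signal was 1173 and 665 in choline-deficient liver, against 1252 and 2503 in control liver, on arrays 1 and 2. After background subtraction and before loess, its log2 ratio was -0.09 on array 1 and -1.99 on array 2. Loess took out a Cy5 excess of 1.09 and 0.94 at this spot. The normalized log2 levels were 9.72 and 9.76 in choline-deficient liver and 10.90 and 10.81 in control liver, without overlap. The log2 ratio was -1.17 on array 1 and -1.05 on array 2, a mean of -1.11 ± 0.09 (SD, n = 2 arrays), or 2.16-fold lower. The ratio of A_44_P594411 minus the VL30 ratio was 1.32 on array 1 and 1.29 on array 2. In whole liver, fewer cells that carry a transcript and less of it per cell cannot be told apart.

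**Figure D1:**
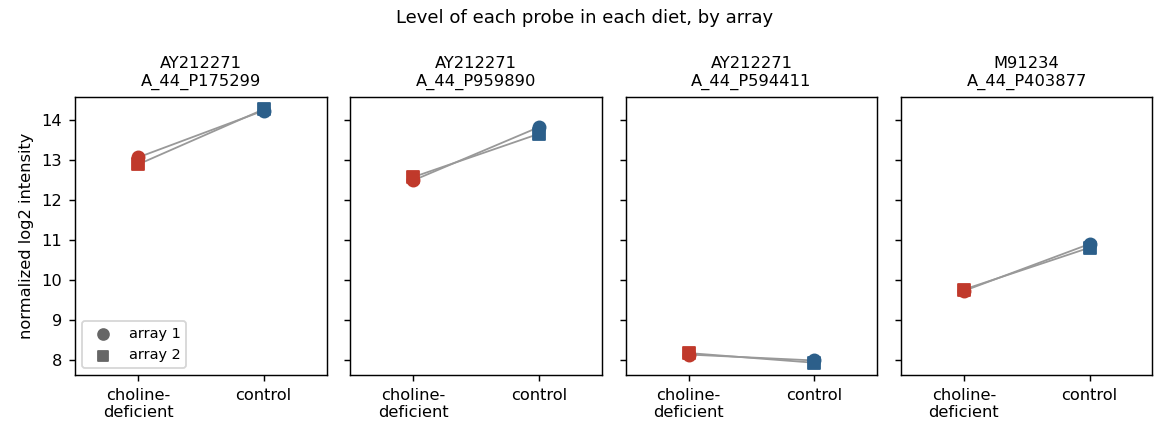
Normalized log2 intensity of each probe (vertical axis) in choline-deficient liver (red, left) and control liver (blue, right), with array 1 as circles, array 2 as squares and a grey line joining the diets of an array. In 3 panels the choline-deficient values are lower, at mean log2 ratios of -1.28, -1.21 and -1.11, and for the AY212271 probe A_44_P594411 they are not (0.20); heights are not comparable between probes.

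The spread of these ratios between the arrays, with SDs from 0.07 to 0.18, can be set beside the precision within an array. For the 169 tested probes that have 10 spots per array, the median SD between spots was 0.061 (array 1) and 0.052 (array 2) in log2 ratio. Each of the 4 probes has 1 spot per array, none of which was flagged as an outlier or saturated. Across the arrays as a whole, between 53.5% and 63.2% of the 43379 gene spots were well above background in either diet, and 22367 probes were well above background on both arrays in at least one diet and were tested. Precision is limited by there being only 2 arrays.

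A drop of at least 2-fold on both arrays was seen in 3 of the 4 probes, a count that describes how they were chosen. Among all tested probes, 20 of 22367 (0.0894%) were at least 2-fold lower on both arrays, and 39 (0.174%) were at least 2-fold higher. Each of the 4 probes had the same sign on both arrays, as did 56.1% of all tested probes. How many of all tested probes lacked overlap between the diets was not counted. Lack of overlap is therefore given for single probes as a description only. The median log2 ratio over all tested probes was 0.01 on array 1 and -0.01 on array 2. Of those 20 probes, 5 read sequence described as retroviral or listed under the same records: the 3 above, 1 probe of FQ216879 and 1 probe of TC637089. The last pair are not AY212271 or M91234 probes, and they share the contrast that chose the members. Among all 22367 tested probes, such readings were the 4 probes above, those of FQ216879 and 6 classed as retroviral sequence. The FQ216879 probe among the 5 shares a run of 34 bases with A_44_P175299, and 3 of the 5 were chosen on this contrast. The 5 are thus not separate readings, and enrichment was not tested.

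FQ216879 is a rat mRNA sequence without a gene symbol, and its probes were taken up after the member values were seen, because the array files list the same sequence records under them as under AY212271. The probe A_44_P117389, at position 748778 to 748837 of the unplaced part of chromosome 9 in rn4 (9_random), shares 2 listed records with A_44_P175299 and 1 with A_44_P959890. It also shares a run of 34 bases with A_44_P175299, the only probe on the array with which it shares 16 bases or more, so these are overlapping readings of like sequence and not separate evidence. Its normalized log2 levels were 12.09 and 12.22 in choline-deficient liver, against 13.42 and 13.48 in control liver. The log2 ratio was -1.33 and -1.26, a mean of -1.30 ± 0.05 (SD, n = 2 arrays).

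The other FQ216879 probe lies 364 bases further along the same unplaced sequence and read differently. A_44_P837538, at position 749202 to 749261, had log2 levels of 9.42 and 9.31 in choline-deficient liver and 9.19 and 9.34 in control liver, which overlapped. Its log2 ratio was 0.23 on array 1 and -0.03 on array 2, a mean of 0.10 ± 0.18. The probes of FQ216879, like those of AY212271, thus did not all read lower.

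**Figure D2:**
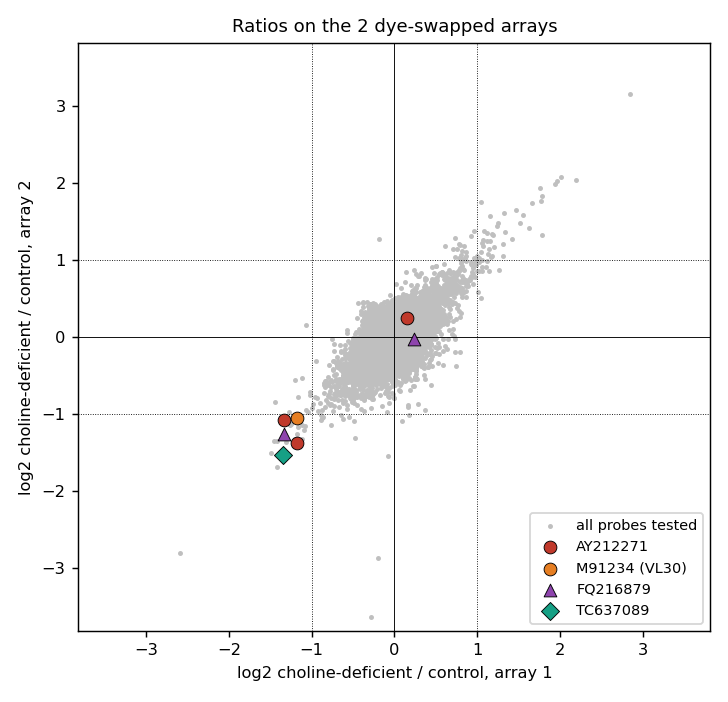
Log2 ratio of choline-deficient over control on array 1 (horizontal) against array 2 (vertical) for all 22367 tested probes (grey), with AY212271, M91234, FQ216879 and TC637089 marked; dotted lines are 2-fold. Of the marked probes, 5 sit beyond 2-fold lower on both arrays, where 20 probes lie in all, and 1 probe each of AY212271 and FQ216879 sits near 0.

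To see whether other transcripts with such descriptions were lower too, every other gene probe was taken whose array description names a retrovirus, a retrotransposon, a transposable element, an envelope or a like term. Of 45 such probes, 27 were tested, and limma called 1 lower and 0 higher at a Benjamini-Hochberg adjusted p under 0.05 over all probes tested. Of all 22367 probes tested, it called 813 lower (3.63%) and 792 higher (3.54%), or 7.18% in either direction. The median log2 ratio of the 27 probes was -0.01, and without TC637089 they ran from -0.24 to 0.23. The term envelope also took up 11 probes for proteins of the nuclear envelope, which have no tie to retroviruses, and 12 were for host genes derived from DNA transposons, which are not retroelements. Of the 27 tested probes, 9 were of the nuclear envelope class and 4 of the DNA transposon class, none of them called, against 6 described as retroviral sequence, 4 of host genes from retroelements and 4 of receptor and other genes.

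The probe called was that of TC637089, a transcript cluster whose description gives a partial match to the envelope glycoprotein of a gammaretrovirus, the protein that binds the cell receptor. Its probe A_44_P953483 lies on the minus strand of chromosome 9 from 20339765 to 20339824 in rn4. Normalized log2 levels were 13.53 and 13.34 in choline-deficient liver, against 14.88 and 14.88 in control liver, with no overlap. The log2 ratio was -1.35 and -1.54, a mean of -1.44 ± 0.13 (SD, n = 2 arrays), or 2.72-fold lower (limma adjusted p = 4.27e-10, and from 6.13e-20 to 1.00 over the alternatives run). It shares no run over 7 bases with the 4 AY212271 and VL30 probes. Whether it reads the same transcripts as they do was not tested.

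The remaining tested probes described as retroviral sequence were close to 0, but all were dimmer than TC637089. Their mean log2 intensities ran from 7.19 to 10.06, against 14.17 for TC637089. The offset pulls the ratios of dim spots towards 0, and its part in these ratios was not tested. Of 9 probes put in this class, 6 were tested and TC637089 alone was called, while the other 5 had mean log2 ratios from -0.18 to -0.04. The class was drawn broadly. It holds an untested probe whose description names an endonuclease and reverse transcriptase but no retrovirus. One of the 5 is described as an antisense RNA that restores susceptibility to retroviruses. TC641770, whose description matches the same gammaretroviral envelope protein as TC637089, had log2 levels of 9.98 and 10.09 in choline-deficient liver and 10.14 and 10.01 in control liver, and a ratio of -0.04 ± 0.17. That ratio was also -0.04 with an offset of 16 and without background correction. XM_344807, described as similar to an envelope protein, was at 0.26 on array 1 and -0.40 on array 2. The tested host genes that derive from retroelements were not called either: Gin1, an integrase-like gene, was at 0.12 ± 0.07, Peg10, an imprinted placental gene of retrotransposon origin, at 0.02 ± 0.24, and the retroviral envelope genes captured for placental cell fusion, Syna and Ervfrd-1, at -0.02 ± 0.06 and 0.04 ± 0.17. Of the nuclear envelope genes, Cnep1r1 was at -0.14 and -0.17 with its 2 probes and Ctdnep1 at 0.12, none of them called.

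**Figure D3:**
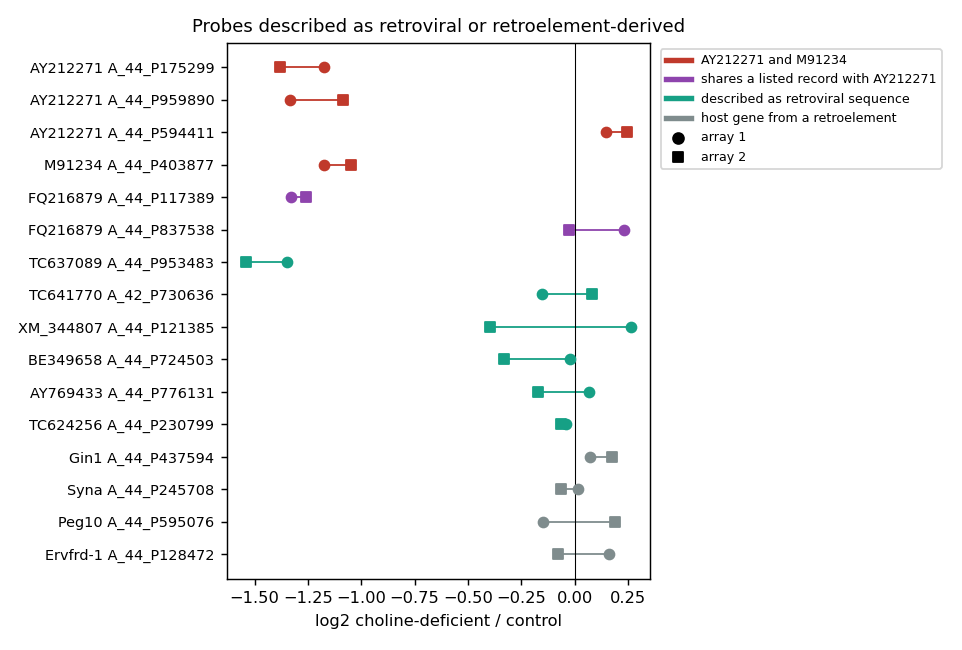
Log2 ratio of choline-deficient over control (horizontal) on array 1 (circles) and array 2 (squares) for each AY212271 and M91234 probe (red), the FQ216879 probes (purple), the tested probes described as retroviral sequence (green) and those of host genes from retroelements (grey). The figure has 5 probes below -1 on both arrays, and the rest lie between -0.40 and 0.26.

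Without background correction, limma called 1994 probes. A set of 41 probes, apart from those of AY212271 and M91234, was followed through the settings. All 41 kept their direction and their side of the threshold without background correction. The host genes nearest in ratio and some others named in the text, such as Egr1, Crem and Clec4f, were not among the 41. Run on the authors' deposited log ratio, which differs in background treatment and in dye normalization at once, limma called 0 of 22367 probes (2584 at an unadjusted p under 0.05), with a smallest adjusted p of 0.217, and when loess gave way to median centring it called 0 (26 at an unadjusted p under 0.05). The calls of TC637089 and of every host gene named below were lost in both of these settings. All 5 ratios kept their sign with the deposited log ratio, which gave -1.31 for A_44_P175299, -1.20 for A_44_P959890, 0.28 for A_44_P594411, -1.27 for M91234 and -1.48 for TC637089, of which those of A_44_P594411 and M91234 moved by more than their SD over the arrays. Under median centring the mean ratios were -1.10, -1.03, 0.28, -0.93 and -1.27, but the arrays parted. A_44_P175299 was at 0.13 on array 1 and -2.32 on array 2, A_44_P594411 at 0.66 and -0.10, and M91234 at -0.16 and -1.70. Median centring leaves the intensity-dependent dye difference in place, and over all tested probes the median ratio was then 0.62 on array 1 and -0.39 on array 2.

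**Figure D4:**
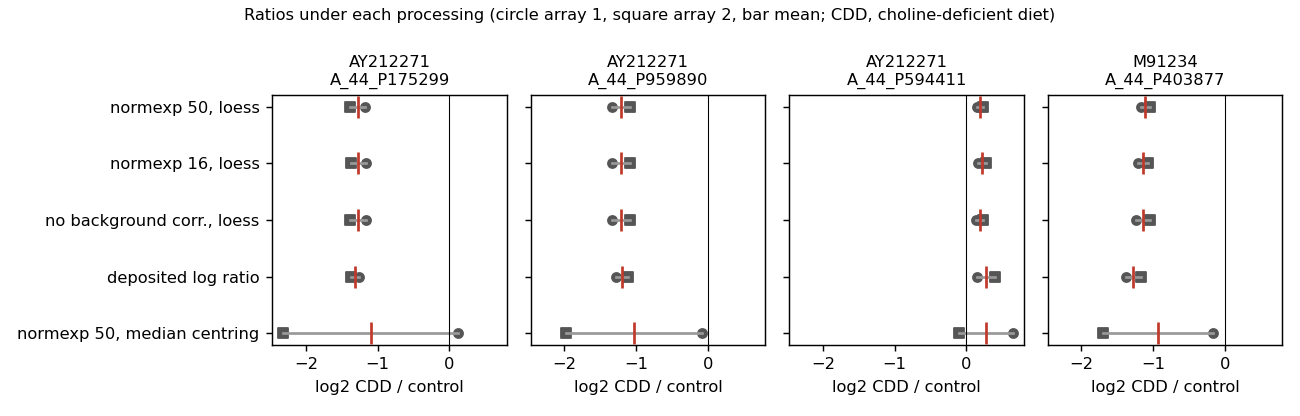
Log2 ratio of choline-deficient over control (horizontal) for each AY212271 and M91234 probe under 5 ways of processing (rows), with array 1 as a circle, array 2 as a square and their mean as a red bar. The mean keeps its sign in every row, and median centring without loess moves it (-1.10 in place of -1.28 for A_44_P175299) and pulls the arrays apart, to 0.13 and -2.32 for A_44_P175299.

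Genes that act on retroelements were looked at in lists, each gene by its probe of highest mean intensity. Over all 18196 genes taken this way, limma called 7.48%, 3.83% higher and 3.65% lower, and the median ratio was 0.00. The silencing list holds the machinery that keeps proviruses shut: the corepressor Trim28, the histone methyltransferase Setdb1, DNA methyltransferases, heterochromatin proteins and chromatin assembly factors. Of its 39 genes, 32 were tested, 2 rose, 0 fell and 30 were not called, with a median of 0.07.

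The silencing genes that rose were both subunits of chromatin assembly factor 1, which places histones on newly copied DNA. Chaf1b had log2 levels of 9.64 and 9.62 in choline-deficient liver, against 8.59 and 8.51 in control liver, a ratio of 1.07 ± 0.04 (SD, n = 2 arrays, limma adjusted p = 3.66e-08). Chaf1a rose by 0.51 ± 0.00 (adjusted p = 0.00113), although its other tested probe was at 0.13. Markers of dividing cells moved with them: 7 of 8 cycling cell markers rose with a median of 0.77 (1.39 with the deposited log ratio), led by the mitotic kinase Cdk1 (1.34 ± 0.14), and their part in the Chaf1 result was not tested.

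The central silencing genes were not called. Trim28 was at 0.17 ± 0.06 (SD, n = 2 arrays, limma adjusted p = 0.449) and Setdb1 at 0.05 ± 0.02 (adjusted p = 0.923). The maintenance DNA methyltransferase Dnmt1 was at 0.10 ± 0.14, and the de novo methyltransferases Dnmt3a and Dnmt3b were at 0.07 ± 0.07 and -0.06 ± 0.04. Uhrf1, which guides Dnmt1 to newly copied DNA, was not well above background and was not tested.

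Genes that sense foreign nucleic acid or restrict retroviruses were measured as a second list. Of its 39 genes, 34 were tested, 0 rose, 1 fell and 33 were not called, with a median of 0.04 and a range from -0.36 to 0.27. The gene that fell was Rsad2, which encodes the interferon-induced antiviral protein viperin, with log2 levels of 9.73 and 9.62 in choline-deficient liver, against 9.95 and 10.11 in control liver. Its ratio was -0.36 ± 0.19 (SD, n = 2 arrays, limma adjusted p = 0.0285), which was no longer called when the offset was 16 (adjusted p = 0.0808). Irf7, a master regulator of interferon genes, was at 0.05 ± 0.09, and Zbp1, a nucleic acid sensor, at 0.05 ± 0.03.

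A further list held AP-1 members and other regulators of families that bind the LTRs of murine retroviruses or VL30. Of 24 genes, 22 were tested, 5 rose, 1 fell and 16 were not called, with a median of 0.12. The stress-induced AP-1 partner Atf3 had log2 levels of 11.62 and 11.67 in choline-deficient liver, against 9.61 and 9.60 in control liver, a ratio of 2.04 ± 0.04 (SD, n = 2 arrays). The AP-1 subunit Jun was at 12.80 and 12.63 in choline-deficient liver and 11.49 and 11.58 in control liver, a ratio of 1.18 ± 0.18 (limma adjusted p = 1.37e-08). Jund, another AP-1 subunit, rose by 0.88 ± 0.21 (0.47 with its other probe), Ets2 by 0.64 ± 0.05 and the early response factor Egr1 by 0.45 ± 0.14, though a second probe of Ets2 was at 0.02. Crem, a cyclic AMP-responsive factor, fell (-0.39 ± 0.19), but not when the offset was 16, and its other tested probes were at -0.36, also called, and -0.03. Junb was at 0.13 ± 0.17 and was not called, and Fos and Fosl1 were not well above background.

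Cell-surface transporters that murine gammaretroviruses use as receptors formed a short list of 6 genes, all tested, of which 3 rose and 0 fell, with a median of 0.27 (0.64 with the deposited log ratio). The phosphate transporter Slc20a1 had log2 levels of 11.31 and 11.28 in choline-deficient liver, against 10.49 and 10.55 in control liver, a ratio of 0.78 ± 0.07 (SD, n = 2 arrays, limma adjusted p = 5.55e-06), and its second tested probe was at 0.78. The amino acid transporters Slc1a5 and Slc7a1 rose by 0.45 ± 0.10 and 0.34 ± 0.17 (0.84 and 0.80 with the deposited log ratio), while a second probe of Slc7a1 was at -0.01 and it was not called once dim probes were kept in (adjusted p = 0.0665). Xpr1, the receptor of xenotropic and polytropic viruses, was at 0.05 ± 0.12. A list of 20 host genes of gag, protease or integrase origin, which does not hold Syna or Ervfrd-1, had 4 tested members (Peg10, Arc, Moap1 and Gin1) and none called, with a median of 0.10.

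**Figure D5:**
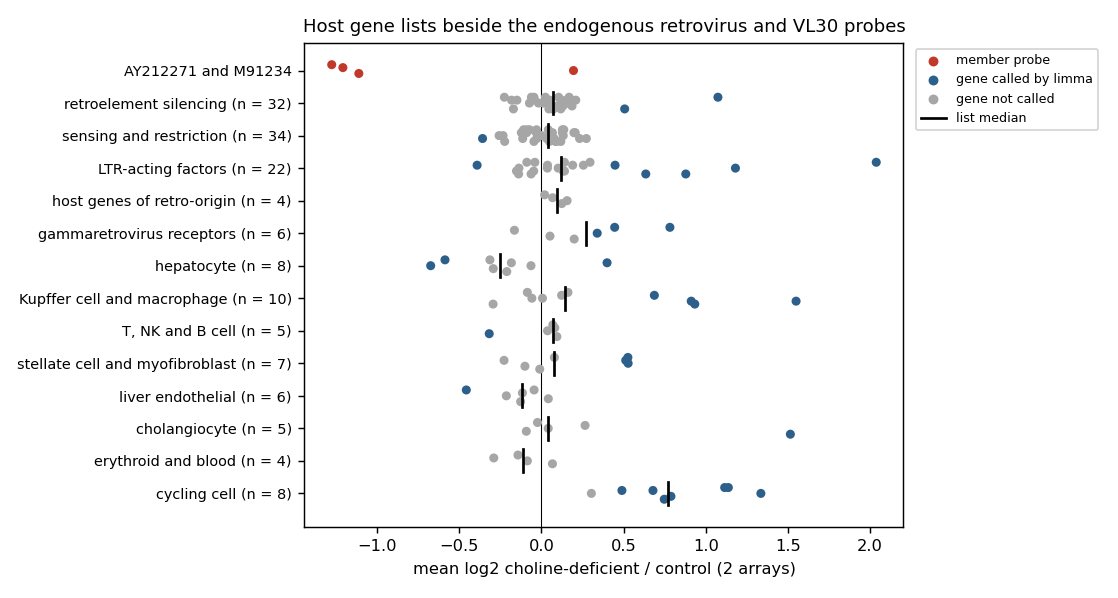
Mean log2 ratio of choline-deficient over control on the 2 arrays (horizontal) for the AY212271 and M91234 probes (red, not tested) and for genes of each list (rows), blue where limma called the gene and grey where it did not; black bars are list medians. The retrovirus and VL30 probes lie at -1.28, -1.21, -1.11 and 0.20, and the silencing and sensing lists have medians of 0.07 and 0.04.

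As to the labelled tissue, all 8 hepatocyte markers were well above background in both diets, albumin with log2 levels of 16.55 and 16.51 in choline-deficient liver and 16.70 and 16.99 in control liver. Hepatocyte markers were at a median of -0.25 over the arrays (array 1 0.03, array 2 -0.51), with Fgb and Apob lower and the apolipoprotein gene Apoa1 higher, a call lost with the offset at 16 (limma adjusted p = 0.0576) and with an intensity trend (0.163). Of 10 Kupffer cell and macrophage markers 4 rose, Gpnmb (1.55 ± 0.33), Trem2 (0.93 ± 0.01, and 1.79 with the deposited log ratio), Marco and Lyz2, with a median of 0.14. Of 7 tested stellate cell markers Vim, Col1a1 and Tagln rose, and other tested probes of Col1a1 were at 0.01 and -0.06. The rest were not called: Des at 0.08, Reln at -0.01, Lrat at -0.10 and Pdgfrb at -0.23. The median of the stellate list was 0.08 (array 1 0.19, array 2 -0.03). Kdr fell among 6 tested endothelial markers (median -0.12), Spp1 rose among 5 of cholangiocytes (median 0.04), and no one of 4 erythroid markers was called. Gzma fell among 5 of T, NK and B cells (-0.32 ± 0.05, limma adjusted p = 0.0477), a call lost with the offset at 16 (0.104) and with dim probes kept in (0.0865). The other tested markers of that list were not called and ran from 0.04 to 0.09, with a list median of 0.07. The median levels of the macrophage markers were 10.11 and 10.26 in choline-deficient liver and 9.62 and 9.63 in control liver, and those of the cycling markers 8.90 and 8.87 against 7.99 and 7.86. Such medians can fall on different genes in each diet, so their gap is not a ratio. The median ratio of the macrophage markers was 0.09 on array 1 and 0.19 on array 2. Clec4f (-0.29), Emr1 (-0.09) and Cd163 (-0.06) were below 0 and not called, and the other macrophage markers not called were above 0. Which cells carry the retroviral and VL30 RNA, and the part of these marker shifts in their ratios, was not tested.

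By distance between the pair of log2 ratios on the 2 arrays, the host genes with a symbol that lay nearest to M91234, among 11194, were Car3, Oat, Spink3, Sult2a1 and Nim1, at distances from 0.12 to 0.13. They encode a carbonic anhydrase, an ornithine aminotransferase, a trypsin inhibitor, a sulfotransferase and a kinase, and their mean log2 ratios ran from -1.13 for Sult2a1 to -1.21 for Nim1. Nearest to the mean of the 3 AY212271 probes, at -0.79 and -0.74 on the arrays, were Slc2a5, Adamts7, Chac1, Prodh2 and Crot. That mean lies between the unlike probes. For the 2 lower AY212271 probes alone, a choice made after their values were seen, the nearest were Nim1, Car3, Spink3, Aspg and Adh1. This likeness spans 2 arrays only.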

How the data were processed

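Liver RNA of both diets was read on each of 2 dye-swapped arrays. The scanner files were made by the authors with Agilent Feature Extraction (version 9.5 in the submitters' processing notes, 9.5.3.1 per the file headers). They hold the deposited spot and local background intensity of each dye, unnormalized, and the authors' log10 ratio of Cy5 over Cy3, computed after spatial detrending and lowess dye normalization per the file headers. From the mean signal and median background, normexp (offset 50) and loess within each array (control spots weighted 0) were run in limma 3.58.1 under R 4.3.3; the offset pulls dim spots' ratios towards 0. Outlier spots (174 and 151) were dropped, and replicate spots averaged. Levels per diet are after loess and A-quantile scaling. A probe was tested if at least one diet was well above background on both arrays. Its mean ratio was set against 0 with lmFit and eBayes, two-sided, with 1 residual and 22.4 prior degrees of freedom. The fit was first run on simulated data whose noise was drawn from the differences between these same arrays. That run cannot speak to error that both arrays share. The series table equalled the log10 ratio in 45018 of 45018 rows within 1% on each array (median 0 in each column) and entered no result. Named genes are every AY212271 and M91234 probe, called retroelement-described probes and 6 others of highest intensity, up to 4 called genes a list, 6 silencing genes, and the 5 nearest genes. The others (Crem, Egr1, Junb, Fos, Fosl1, Irf7, Zbp1, Xpr1, Peg10, Arc, Moap1, Syna, Ervfrd-1, albumin) and the FQ216879 probes were chosen after their values were seen. The uncalled markers Des, Reln, Lrat, Pdgfrb, Clec4f, Emr1 and Cd163 were also named outside these rules. Members and lists were chosen with earlier results of these data known. Gene names come from the array's own annotation. Alternatives were an offset of 16, no background correction, median centring, the deposited log ratio, no filter, an intensity trend and each array alone.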

Additional observations from a re-analysis of the deposited data

How the results depend on the processing

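Mean AY212271 and M91234 ratios kept their direction under every alternative, though with median centring the arrays parted in sign for A_44_P175299 and A_44_P594411. Those that moved by more than the SD over the arrays did so with median centring (A_44_P175299 -1.10, A_44_P959890 -1.03, A_44_P594411 0.28, M91234 -0.93) and with the deposited log ratio (A_44_P594411 0.28, M91234 -1.27). From 1 array alone, ratios were -1.38 to -1.17 for A_44_P175299, -1.33 to -1.08 for A_44_P959890, 0.15 to 0.24 for A_44_P594411 and -1.17 to -1.05 for M91234; counts of calls have no value there, since no residual degree of freedom is left. With the deposited log ratio and with median centring, 0 probes were called, against 792 higher and 813 lower, and so 0 of each list and 0 retroelement-described probes; the cause was not tested. With an offset of 16, 536 probes were lower, and 0 genes of the sensing list and 0 of the LTR factor list; with an intensity trend, 1 sensing gene was higher. Total calls were 1605, and from 1109 to 2059 in the settings with loess on the scanner signals. Called ratios over 1.5 times as large with the deposited log ratio were also those of Tagln (0.86, against 0.51) and Ccnb1 (1.29, against 0.79), and those that shrank as far with median centring were Rsad2 (-0.18), Gzma (-0.16) and Kdr (-0.28). The fit is paired as it stands, since each ratio is taken between the diets within an array. A separate fit with a replicate block could not be made for that reason.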
